A study of Mus musculus with 6 samples.

Results

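Gap43, Dcx, Tubb3, Stmn2, Stmn4, Map1b, Vgf and Dlk1 are 8 genes that neuroblasts and growing neurites use. They were followed by name through single-cell RNA libraries of mouse cerebral cortex, in which they were 8 of 22833 genes measured in the NG2 line and 8 of 21008 in the Tbx18 line. Of these, 7 were among the 19679 genes of another table that held only the naïve cells, where Dlk1 had no entry. Mice of 3 to 4 months carried either NG2-Cre-ERT2/Ai14-flx or Tbx18-CreERT2/Ai14-flx, so that tamoxifen switched on the red protein tdTomato in cells in which the NG2 or the Tbx18 promoter drove Cre. The cortex was naïve, physically injured by an intracerebral saline injection, or made ischemic by an injection of ET-1/L-NAME, a vasoconstrictor peptide with an inhibitor of nitric oxide synthesis. Injured mice had received tamoxifen 7 days before injury, and their cells were collected 3 days after it. Live tdT+ cells, which excluded the dye DAPI, were sorted. The NG2 promoter is active in oligodendrocyte precursor cells (OPCs) as well as in pericytes, so the NG2 sort could hold both. Each of the 6 groups was 1 library of cells pooled from several animals. There was therefore no replicate and no test: intervals are exact 95% intervals that cover counting error only.

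A growing neurite extends through an actin-rich growth cone at its tip and a shaft of microtubules. Gap43 is a membrane protein of growth cones, Dcx (doublecortin) and Map1b bind and steady microtubules, Tubb3 is the neuronal beta-tubulin, and Stmn2 and Stmn4 are stathmins, which bind free tubulin. Vgf is a secreted neuropeptide precursor, and Dlk1 is a membrane relative of the Notch ligands. Several of these genes are also used outside neurons in the adult brain, Dcx and Gap43 in OPCs among others.

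The NG2 libraries held 4306 naïve, 2563 physical injury and 3586 ischemic injury cells with 20264659, 24674494 and 54276245 unique molecular identifiers (UMIs, counted mRNA molecules). The Tbx18 libraries held 686, 3845 and 2047 cells with 3153996, 30196989 and 20308437 UMIs. No pair of libraries shared more than 5 cell barcodes, while the naïve cells of each line were the same cells in the line's own table and in the naïve table. Levels are UMI counts summed over the cells of 1 deposited cluster in 1 library, scaled to counts per 1000000 UMIs of those cells (CPM). By marker genes, NG2 clusters 0, 1, 2 and 10 were pericyte-like, 3 smooth-muscle-like, 4 mature-oligodendrocyte-like, 5 endothelial-like, 6 OPC-like and 9 microglia-like. Cluster 7 was left without a name. Its 76 physical injury and 438 ischemic injury cells carried radial glia markers at a summed 6738 and 9945 CPM, OPC markers at 7956 and 4826 CPM, mitosis genes at 1141 and 1879 CPM, and pericyte markers at 35.0 and 49.0 CPM. Its 17 naïve cells stood apart, with pericyte markers at 13650 CPM, a median of 987 UMIs per cell, and only 2 counts each of Gap43 and Stmn4 among the 8 genes. They were too few for a level. The clusters had been formed on expression, so differences between clusters are descriptions.

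Of the 8 genes, 4 had an entry among the RefSeq promoter sequences of GRCm38.p6: Dcx, Tubb3, Map1b and Dlk1. The windows ran from 250 bases before to 50 bases after the transcription start. The letters TATAAA, on either strand, stood in the windows of Dcx and Map1b and in 13.6% of all 32851 windows. The letters TGACG, the core of the cyclic AMP response element, on either strand, stood in that of Dlk1 and in 20.8% of all windows. The full element TGACGTCA (1.79% of all windows), which contains the shorter one, and TGANTCA (7.81%) stood in none of the 4. The 250 bases before the start are shown for Dcx, the gene that was lower in cluster 7 than in cluster 6, for Dlk1, which had few counts outside cluster 7, and for Map1b, whose ratio between these clusters turned with the injury. Capitals mark TATAAA in Dcx and Map1b and TGACG in Dlk1. Dcx lies on chrX:143933220-143933469, Map1b on chr13:99516603-99516852, both on the minus strand, and Dlk1 on chr12:109452573-109452822 on the plus strand.
Dcx: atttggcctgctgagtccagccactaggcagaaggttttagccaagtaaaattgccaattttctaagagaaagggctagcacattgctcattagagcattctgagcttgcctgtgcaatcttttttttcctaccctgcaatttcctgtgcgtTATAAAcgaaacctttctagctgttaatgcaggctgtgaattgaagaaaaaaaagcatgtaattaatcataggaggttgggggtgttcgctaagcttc
Map1b: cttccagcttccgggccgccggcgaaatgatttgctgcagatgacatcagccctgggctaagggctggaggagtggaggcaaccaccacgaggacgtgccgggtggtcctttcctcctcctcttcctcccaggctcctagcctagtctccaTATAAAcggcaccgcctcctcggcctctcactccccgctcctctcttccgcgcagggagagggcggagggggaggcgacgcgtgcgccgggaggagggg
Dlk1: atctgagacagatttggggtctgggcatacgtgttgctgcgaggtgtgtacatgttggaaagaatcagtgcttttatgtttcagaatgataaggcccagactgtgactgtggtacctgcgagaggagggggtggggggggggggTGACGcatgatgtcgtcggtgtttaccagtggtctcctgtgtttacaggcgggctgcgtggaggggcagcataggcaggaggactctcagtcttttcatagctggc

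Most counts of each gene, summed over the 3 NG2 libraries, fell in a few clusters, and the clusters differed from gene to gene. Cluster 7 held 86.2% of 9194 Gap43 counts, 91.8% of 2467 Vgf counts and 94.1% of 1063 Dlk1 counts. The OPC-like cluster 6 held 75.5% of 638 Dcx counts and cluster 7 another 24.0%, which left 3 Dcx counts for all other clusters. Stmn4 and Tubb3 counts fell mostly in mature-oligodendrocyte-like cluster 4, which held 90.9% of 27223 and 62.9% of 5726 counts. Endothelial-like cluster 5 held 92.6% of 1415 Stmn2 counts. Map1b was spread more widely, where smooth-muscle-like cluster 3 held 34.5% of 16440 counts, cluster 7 31.8%, and clusters 4 and 6 another 13.4% and 12.04%. The order of these clusters depended on the library: cluster 3 held 2528 of 3086 Map1b counts in naïve and 1575 of 3449 in physical injury cells, but 1562 of 9905 in ischemic injury cells, where cluster 7 held 5100. The genes thus differed in the cell population that held them.

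**Figure D1:**
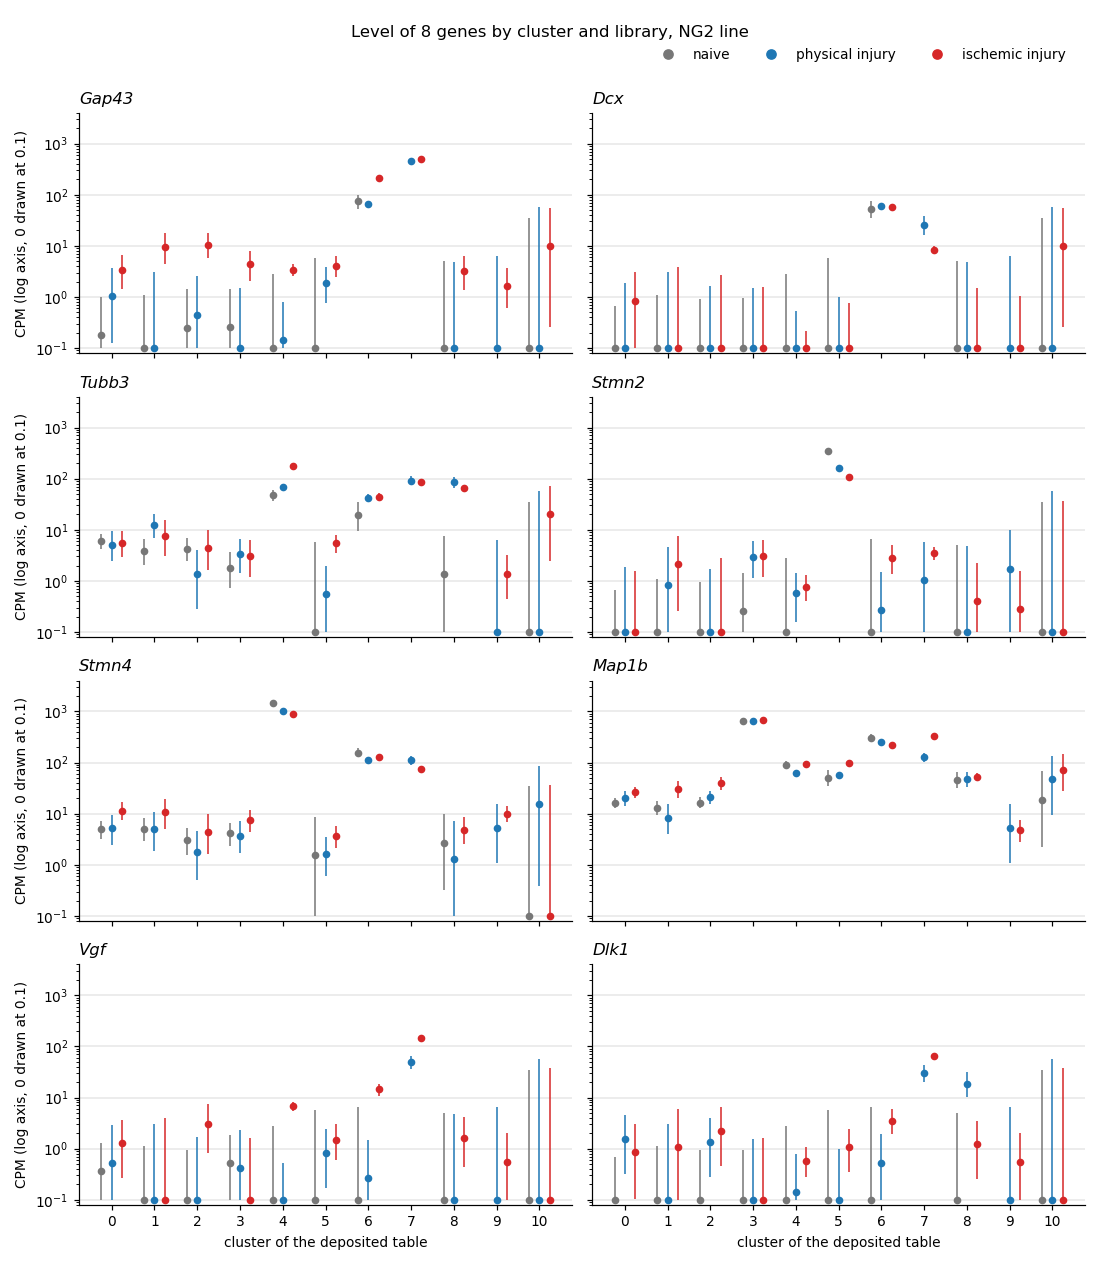
Level of each of the 8 genes in the clusters of the NG2 line, in CPM on a log axis with 0 drawn at 0.1, 1 point for each cluster and library of at least 20 cells with its exact Poisson interval. Gap43, Vgf and Dlk1 stand highest in cluster 7, Dcx in cluster 6, Stmn4 in cluster 4, Stmn2 in cluster 5 and Map1b in cluster 3.

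Gap43 (chr16:42248442-42340651, minus strand, mm10) was at 73.8 CPM (42 counts) in naïve, 65.5 CPM (248 counts) in physical injury and 211 CPM (835 counts) in ischemic injury cells of cluster 6. In cluster 7 it was at 450 CPM (interval 409 to 495) after physical and 494 CPM (483 to 505) after ischemic injury. Cluster 7 was thus the higher of the pair in both injured libraries, by 6.88-fold (5.87 to 8.07) and 2.34-fold (2.17 to 2.51), and the smaller ratio after ischemia went with the higher level in cluster 6. In pericyte-like cluster 1, Gap43 had 0 counts in naïve and physical injury cells and was at 9.61 CPM after ischemic injury.

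Dcx (chrX:143855842-143933311, minus strand) went the other way. Its level in cluster 6 was 52.7 CPM in naïve (30 counts), 59.7 CPM in physical injury (226 counts) and 57.2 CPM in ischemic injury cells (226 counts), 3 values whose intervals overlap. In cluster 7 it was at 25.8 CPM (25 counts) and 8.45 CPM (128 counts). Cluster 6 was 2.32-fold (1.53 to 3.66) and 6.77-fold (5.43 to 8.48) higher than cluster 7 after physical and ischemic injury. Uninjured OPC-like cells therefore already held Dcx transcripts at the level seen after injury.

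Vgf (chr5:137026392-137033351, plus strand) had no count in naïve cells of cluster 6, 1 count after physical injury and 57 counts, or 14.4 CPM, after ischemic injury. Vgf in cluster 7 was at 48.5 CPM (47 counts in 7 cells, 26 of them in 1 cell) and 146 CPM (2217 counts in 192 cells). Dlk1 (chr12:109452823-109463336, plus strand) had 0, 2 and 14 counts in cluster 6, and in cluster 7 was at 29.9 CPM (29 counts in 8 cells) and 64.1 CPM (971 counts in 194 cells). Both genes were higher in cluster 7 than in cluster 6 in each injured library, Vgf by 10.1-fold (7.80 to 13.4) and Dlk1 by 18.1-fold (10.7 to 33.2) after ischemic injury. After physical injury the ratios were 183 (31.3 to 7396) for Vgf and 56.6 (14.3 to 489) for Dlk1, with intervals as wide as the 1 and 2 counts in cluster 6 make them.

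Tubb3 (chr8:123411424-123422015, plus strand) was at 42.5 and 44.3 CPM in cluster 6 and at 91.7 and 84.9 CPM in cluster 7 after physical and ischemic injury, 2.16-fold (1.65 to 2.81) and 1.92-fold (1.63 to 2.26) higher in cluster 7. The former passed 2-fold in 5 of 8 alternative settings, and its log2 ratio was 0.59 with the mean over cells in place of the sum. Stmn4 (chr14:66344296-66361680, plus strand) did not differ between the clusters after physical injury beyond counting error, with a ratio of 1.01 (0.810 to 1.25), and was lower in cluster 7 after ischemic injury, with a ratio of 0.585 (0.526 to 0.652). Map1b (chr13:99421446-99516540, minus strand) turned with the injury. It was at 252 CPM in cluster 6 and 126 CPM in cluster 7 after physical injury, but at 215 and 337 CPM after ischemic injury, so that the ratio of cluster 7 over 6 went from 0.499 (0.410 to 0.603) to 1.56 (1.45 to 1.68). With the cell filters of the study's methods applied again, the log2 ratio of Map1b after physical injury was 0.15 in place of -0.997.

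With a call set at more than 2-fold on the log2(CPM + 1) scale in genes of at least 10 counts, 4 of 7 counted genes were called higher in cluster 7 after physical injury (Gap43, Tubb3, Vgf and Dlk1) and 1 lower (Dcx). Of all 13437 genes counted, 26.0% passed the same fold, 10.4% higher and 15.6% lower. After ischemic injury 3 of 8 were called higher (Gap43, Vgf and Dlk1) and 1 lower (Dcx), where 25.5% of 15890 genes passed, 8.36% higher and 17.1% lower. The median log2 ratio of the counted members was 1.09 after physical and 0.78 after ischemic injury, and that of all counted genes -0.16 and -0.28. The members were chosen with earlier results of these data known, so setting them against all genes is a description only. Stmn2 was not counted after physical injury, with 1 count in each cluster.

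Median depth per cell in cluster 7 was 12792 UMIs after physical and 37572.5 after ischemic injury, against 12390 and 11764.5 in cluster 6. Every cell was therefore thinned to 1000 UMIs, and shallower cells were left out (24 in each injured library of cluster 7, and 15 and 8 in cluster 6). At this depth Gap43 had a UMI in 36.5% of 52 physical injury cells and 37.2% (32.5 to 42.1) of 414 ischemic injury cells of cluster 7. In cluster 6 the shares were 5.15% in naïve, 3.85% in physical and 12.9% in ischemic injury cells. Cluster 7 was above cluster 6 in both libraries without overlap of the intervals. Dcx was found in 5.15%, 2.80% and 3.15% of naïve, physical and ischemic injury cells of cluster 6, and in 1.21% of the ischemic injury cells of cluster 7. For Dcx the intervals of clusters 6 and 7 after ischemic injury overlapped. In cluster 1, whose pericyte-like cells serve as the background, Gap43 was found in 0.394% of 254 ischemic injury cells and in none of 298 physical injury cells, which allows a share of up to 1.01%. Without thinning, 91.1% of cluster 7 and 50.7% of cluster 6 cells had a Gap43 UMI after ischemic injury.

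**Figure D2:**
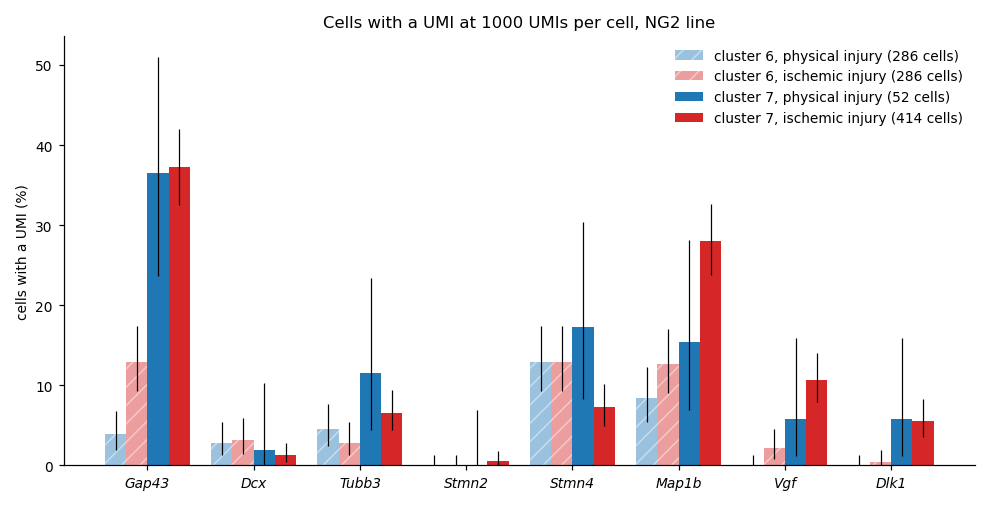
Percentage of cells with a UMI of each gene after thinning every cell to 1000 UMIs, in clusters 6 and 7 of the NG2 line after physical and ischemic injury, with exact binomial intervals. Gap43 reaches 36.5% and 37.2% in cluster 7, against 3.85% and 12.9% in cluster 6.

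Cells of cluster 7 held more of the 8 genes per cell, a count that partly restates the levels given above. At 5000 UMIs per cell, Gap43 alone was found in 336 of 383 ischemic injury cells of cluster 7. After thinning to 5000 UMIs, 83.3% (79.2 to 86.9) of 383 ischemic injury and 67.4% (52.0 to 80.5) of 46 physical injury cells of cluster 7 had UMIs of at least 2 of the genes. The shares in cluster 6 were 52.5% (45.7 to 59.2) of 221 ischemic, 41.5% (35.1 to 48.1) of 234 physical injury and 47.8% of 46 naïve cells. In mature-oligodendrocyte-like cluster 4 they were near those of cluster 6, at 51.3% of 546 ischemic, 36.4% of 291 physical injury and 38.9% of 95 naïve cells. In pericyte-like cluster 1 they lay between 0 and 1.96%. The mean number of genes per cell was 2.60 ± 1.15 (SD over cells) in cluster 7 and 1.63 ± 0.967 in cluster 6 after ischemic injury, and 2.26 ± 1.41 and 1.39 ± 0.869 after physical injury. The neuroblast trio of Dcx, Tubb3 and Stmn2 was not seen together in any thinned cell of clusters 6 and 7. At full depth it was seen in 2 of 438 ischemic and 1 of 76 physical injury cells of cluster 7 and in 1 of 294 ischemic injury cells of cluster 6. Stmn2 itself was near absent, with 1 count in each cluster after physical injury. After ischemic injury it had 53 counts in cluster 7 and 11 in cluster 6. The trio could therefore hardly be seen, and its absence does not tell what the cells are. At full depth, 5 of 12 cells with Dcx in cluster 7 and 49 of 123 in cluster 6 also had Tubb3 after physical injury. After ischemic injury, where cluster 7 was the deeper, 56 of 75 in cluster 7 and 42 of 109 in cluster 6 did. After physical injury the median depths were alike, but 30 of 76 cells of cluster 7 and 67 of 301 of cluster 6 were under 5000 UMIs. The depth of the cells with Dcx was not matched in either library.

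**Figure D3:**
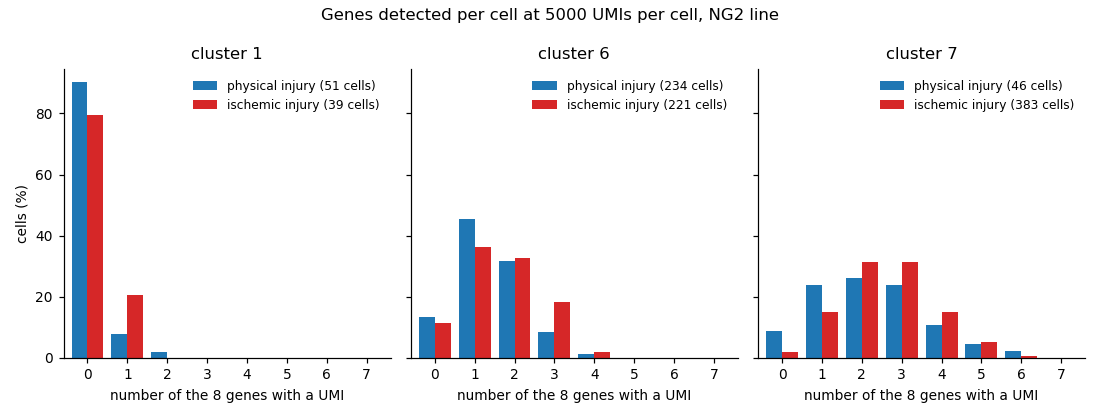
Percentage of cells by the number of the 8 genes with a UMI, after thinning each cell to 5000 UMIs, in clusters 1, 6 and 7 of the NG2 line after physical and ischemic injury. Cells of cluster 7 lie further to the right, with means of 2.26 and 2.60 genes against 1.39 and 1.63 in cluster 6.

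Within cluster 6 after physical injury, Gap43 was found in 33.9% (22.1 to 47.4) of the cells with Dcx and in 13.7% (8.99 to 19.7) of those without it. After ischemic injury the shares were 47.2% and 39.9%, with overlapping intervals. The other pairs in cluster 6 after physical injury had overlapping intervals. Those among Gap43, Dcx, Tubb3, Stmn4 and Map1b leaned to lower shares in cells with the other gene, except Dcx with Tubb3. Stmn4 was in 22.7% of cells with Gap43 and 40.0% without, and Tubb3 in 25.4% with Dcx and 21.1% without. Pairs with Gap43 in cluster 7 after ischemic injury overlapped too, with Tubb3 in 29.8% and 36.2% and Map1b in 67.6% and 59.6%. Within cluster 7 the genes differed in how evenly they were spread. After ischemic injury the 10% of cells with the most counts held 26.2% of Gap43, 38.5% of Map1b, 65.7% of Dlk1 and 78.4% of Vgf counts, and 1 cell alone held 158 Vgf molecules. Gap43 was thus carried by most cells and Vgf by a minority, with Vgf UMIs in 192 of 438 cells at full depth.

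Cluster 7 cells with mitosis genes had a lower summed level of the 8 genes. After ischemic injury, 312 thinned cells had a UMI of Mki67, Top2a or another of 8 mitosis genes and 71 had none. The summed level of the 8 genes was 1131 CPM in the former and 1583 CPM in the latter, a ratio of 0.714 (0.649 to 0.787), with 0.790 (0.679 to 0.922) for Gap43, 0.625 (0.524 to 0.750) for Map1b and 0.582 (0.406 to 0.849) for Stmn4. The intervals of the other 5 genes included 1, with Dcx at 1.14 (0.242 to 10.7). In cluster 6 the summed level went the other way after ischemic injury, with a ratio of 1.25 (1.04 to 1.48) between 48 cells with and 173 without a mitosis UMI. After physical injury the ratio was 0.751 (0.567 to 0.989) in cluster 7 and 0.688 (0.466 to 0.984) in cluster 6. The ischemic injury cells of cluster 7 were also split by genes of committed oligodendrocyte precursors (Bmp4, Gpr17, Neu4 and Enpp6), a split added after values had been seen. The 108 cells with such a UMI had lower Vgf (ratio 0.228, 0.137 to 0.361), Dlk1 (0.456, 0.264 to 0.748) and Map1b (0.510, 0.411 to 0.629) than the 275 cells without. Gap43 did not differ by this split beyond counting error (0.978, 0.847 to 1.13), and Dcx had a ratio of 3.56 with an interval from 0.974 to 14.2. In cluster 6 Map1b went the other way after physical injury, with a ratio of 7.10 (3.00 to 22.1) between 202 cells with and 32 without. The 32 cells held 5 Map1b counts, and after thinning to 2000 UMIs the ratio was 2.53 (1.47 to 4.58). After ischemic injury the Map1b ratio in cluster 6 was 1.44 (0.961 to 2.22). Vgf was lower there too (0.147, 0.0522 to 0.392), on 8 counts in 181 cells with and 12 in 40 without.

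Between the injuries, cluster 7 held more Map1b, Vgf and Dlk1 after ischemia, with ratios over physical injury of 2.68 (2.24 to 3.23), 3.02 (2.26 to 4.12) and 2.14 (1.48 to 3.22). Dcx was 3.05-fold (1.90 to 4.71) higher after physical injury, with 25 and 128 counts, and passed 2-fold in 5 of 8 alternative settings. Its log2 ratio of ischemic over physical injury was -1.50, but -0.60 with the cell filters of the study's methods applied again and -0.35 with the mean over cells. With the filters none of the 8 genes passed 2-fold between the injuries in cluster 7, where Map1b was at 0.83, Vgf at 0.81 and Dlk1 at 0.30. Gap43 did not differ beyond counting error (1.10, 0.995 to 1.21), nor did Tubb3 (0.925, 0.746 to 1.16). With Stmn2 (53 counts against 1, a ratio whose interval includes 1), 4 of 8 genes were called higher after ischemic injury and 1 lower, where 12.1% of all 15235 genes counted passed 2-fold, 5.50% higher and 6.58% lower. The median depth of cluster 7 cells differed 12792 to 37572.5 UMIs between these libraries. In cells of at least 5000 UMIs thinned to 5000, the log2 ratio of Dlk1 was -0.09 in place of 1.07, while those of Map1b and Vgf stayed above 0. Of the markers, 3 of 4 counted smooth muscle genes were higher and 3 of 7 genes of committed oligodendrocyte precursors lower after ischemia, and their part in these ratios was not tested.

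In cluster 6, Gap43 was 3.23-fold (2.80 to 3.73) higher after ischemic than after physical injury, while Dcx (0.958, 0.793 to 1.16) and Tubb3 (1.04, 0.836 to 1.30) did not differ beyond counting error. Vgf (57 counts against 1), Dlk1 (14 against 2) and Stmn2 (11 against 1) were also called, so that 4 of 8 were higher and none lower, where 6.09% of 14506 genes passed 2-fold, 4.68% higher and 1.41% lower. The 11 Stmn2 counts all came from 1 cell. Of the 57 Vgf counts, 57.9% came from 3 of 294 cells, and the 30 cells with the most held all of them. The mitosis genes moved with these values, summing to 23.2 CPM after physical and 206 CPM after ischemic injury in cluster 6 with 8 of 8 genes higher, and endothelial markers were higher too, with 6 of 6. Their part in the result was not tested.

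Against naïve cells of cluster 6, Tubb3 was higher after both injuries. It had 11 counts (19.3 CPM) in naïve cells, and the ratios were 2.20 (1.20 to 4.49) after physical and 2.29 (1.25 to 4.67) after ischemic injury. Gap43 was at 0.887 (0.638 to 1.26) of the naïve level after physical injury, which includes no change, and 2.86-fold (2.10 to 4.00) higher after ischemic injury. Tubb3 was the 1 gene of 5 counted that was called after physical injury, where 6.62% of all genes were higher and 5.34% lower past 2-fold. After ischemic injury Vgf (57 counts against 0) was at 2.74-fold the level that 3 counts would give in naïve cells. Its ratio had a lower interval end of 2.15, and 57.9% of these counts came from 3 cells. Stmn2 (11 counts against 0) and Dlk1 (14 against 0) were called too, but their ratios had lower interval ends of 0.361 and 0.478, so that counting error allows no change or a decrease. With these, 5 of 8 were called higher and none lower, where 10.5% of all genes were higher and 4.93% lower past 2-fold. Naïve cells of cluster 6 carried more pericyte marker counts, 1860 CPM against 249 and 301 CPM in the injured libraries. After ischemic injury 6 of 8 mitosis genes (98.4 to 206 CPM in sum) and 5 of 6 endothelial markers (7.03 to 62.8 CPM) were higher than in naïve cells. The part of these markers in the ratios was not tested.

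Stmn4 and Tubb3 were also oligodendrocyte transcripts in these data. Stmn4 was at 1433, 1014 and 909 CPM in naïve, physical and ischemic injury cells of cluster 4, and had a UMI in 96.1%, 99.7% and 97.0% of them. Its level was high without injury and lowest of the 3 libraries after ischemia. Tubb3 in the same cells was at 47.4 CPM (36.3 to 60.7), 68.6 CPM (62.6 to 75.0) and 177 CPM (170 to 183), and thus higher in each injured library, with a ratio of 2.58 (2.34 to 2.84) of ischemic over physical injury. The 10% of cells with the most counts held 53.2%, 66.7% and 62.6% of these Tubb3 counts in naïve, physical and ischemic injury cells. After physical injury 3 of 294 cells held 28.6% of the 483 counts, and 1 cell alone held 61. Gap43 (59 counts against 1) and Vgf (116 counts against 0, of which 71 in 1 cell) were also called, so that 3 genes were called higher in cluster 4 after ischemic injury, where 4.04% of 14665 genes were higher and 0.361% lower past 2-fold. Of the 59 Gap43 counts, 57.6% came from 6 of 592 cells. In the same comparison 5 of 8 mitosis genes (6.81 to 18.4 CPM in sum) and 3 of 7 OPC markers (73.4 to 149 CPM) were higher, and their part in these calls was not tested.

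Stmn2 (chr3:8509360-8561606, plus strand), a stathmin known from growing and regenerating axons, was an endothelial transcript here. In cluster 5 it was at 345 CPM (301 to 394) in naïve, 159 CPM (146 to 172) in physical and 106 CPM (97.0 to 116) in ischemic injury cells, in 28.7%, 23.3% and 18.1% of the cells. The 3 levels did not overlap and were highest without injury. The ratio of ischemic over physical injury was 0.667 (0.591 to 0.753), which is within 2-fold, and Tubb3 (26 counts against 2) was the 1 gene called in this cluster, where 2.39% of 13030 genes were higher and 1.86% lower past 2-fold. All 7 counted mitosis genes (6.77 to 36.7 CPM in sum over the list) and 3 of 4 smooth muscle markers (98.6 to 223 CPM) were also higher after ischemia, and their part in these values was not tested. The counts were held by a part of the cells. All 220 naïve Stmn2 counts of cluster 5 came from the 33 cells that fell in cluster 13 of the naïve table, and the 68 cells of its cluster 10 had none. In the Tbx18 line 80 of the 114 naïve Stmn2 counts of endothelial-like cluster 0 came from 19 cells of that same naïve cluster 13. Here 63 cells of naïve cluster 10 held another 23 counts, and 68 cells of naïve cluster 6 held 11.

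Endothelial-like cells with Stmn2 carried more arterial genes than those without. After thinning to 2000 UMIs, an arterial list (Bmx, Gkn3, Sox17, Efnb2, Sema3g and Mgp), written after values had been seen, was higher in NG2 cells with a Stmn2 UMI by 7.75-fold (6.28 to 9.61) in naïve, 3.66-fold (3.25 to 4.13) in physical and 4.89-fold (4.34 to 5.51) in ischemic injury cells. A capillary list (Mfsd2a, Rgcc, Slc16a1 and Tfrc) stood at 0.137, 0.440 and 0.434 of the level in cells without Stmn2, and a venous list (Slc38a5, Nr2f2 and Lcn2) at 0.474, 0.228 and 0.0968, the first of these with an interval that includes 1. In Tbx18 cluster 0 the arterial ratios were 2.13 (1.56 to 2.88), 4.45 (4.17 to 4.74) and 4.80 (4.52 to 5.10). The direction for the arterial and the capillary list was the same in all 6 libraries. Gkn3, for example, was at 1304 CPM in the 23 naïve NG2 cells with Stmn2 and 62.5 CPM in the 72 without it.

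Map1b was foremost a smooth muscle transcript in vessel cells. In NG2 cluster 3 it was at 650, 649 and 676 CPM in naïve, physical and ischemic injury cells, in 82.7%, 86.0% and 84.8% of them. These levels did not differ beyond counting error between the 3 libraries. In endothelial-like cluster 5 it was at 50.2, 58.3 and 98.3 CPM, and the ratio of ischemic over physical injury was 1.69 (1.43 to 1.99). In OPC-like cluster 6 the 10% of cells with the most counts held 79.3%, 81.1% and 73.1% of its counts in naïve, physical and ischemic injury cells.

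Cluster 8 carried pericyte markers at 24104 to 26593 CPM and more smooth muscle markers after injury (944, 3854 and 2055 CPM in naïve, physical and ischemic injury cells). Tubb3 had 1 count in its 177 naïve cells, and was at 84.3 CPM (64.9 to 108) in 81 physical and 65.6 CPM (55.9 to 76.6) in 240 ischemic injury cells. Of these counts 90.6% and 90.7% came from the 10% of cells with the most. Dlk1 had 0 counts in the naïve cells, 14 counts in 5 cells after physical injury and 3 counts after ischemic injury. Dcx had none in any library of this cluster.

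In the Tbx18 line, 5 of the 8 genes had few counts. Over all its cells Dcx had 1 count, Dlk1 2, Vgf 16, Tubb3 68 and Gap43 74. Of the Gap43 counts, 36 lay in endothelial-like cluster 0 (1.33 CPM over all libraries) and 30 in cluster 4. Cluster 4 held pericyte markers in naïve and radial glia and smooth muscle markers in injured cells. Its Gap43 counts were 12 from physical and 18 from ischemic injury cells, or 4.39 and 13.8 CPM. Stmn2 and Map1b were held by the endothelial-like and smooth-muscle-like cells of the line. Stmn2 in cluster 0 was at 154 CPM (127 to 185), 148 CPM (141 to 155) and 170 CPM (163 to 177) in naïve, physical and ischemic injury cells, which hold 98.4% of its 4402 counts in the line. The ratio of ischemic over physical injury was 1.15 (1.08 to 1.22), where 0.483% of 14918 genes were higher and 0.697% lower past 2-fold. Pericyte markers were lower in this comparison, with 8 of 8, and so were 4 of 5 smooth muscle markers, and their part in the ratio was not tested. Map1b in smooth-muscle-like cluster 1 was at 584, 728 and 563 CPM. Stmn4 was found in cluster 6, whose 22 cells carried mature oligodendrocyte markers and held 95.0% of 218 counts. These few cells also held 17 of the 68 Tubb3 counts (53.5 CPM over all libraries), 4 of the 74 Gap43 counts and the 1 Dcx count.

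**Figure D4:**
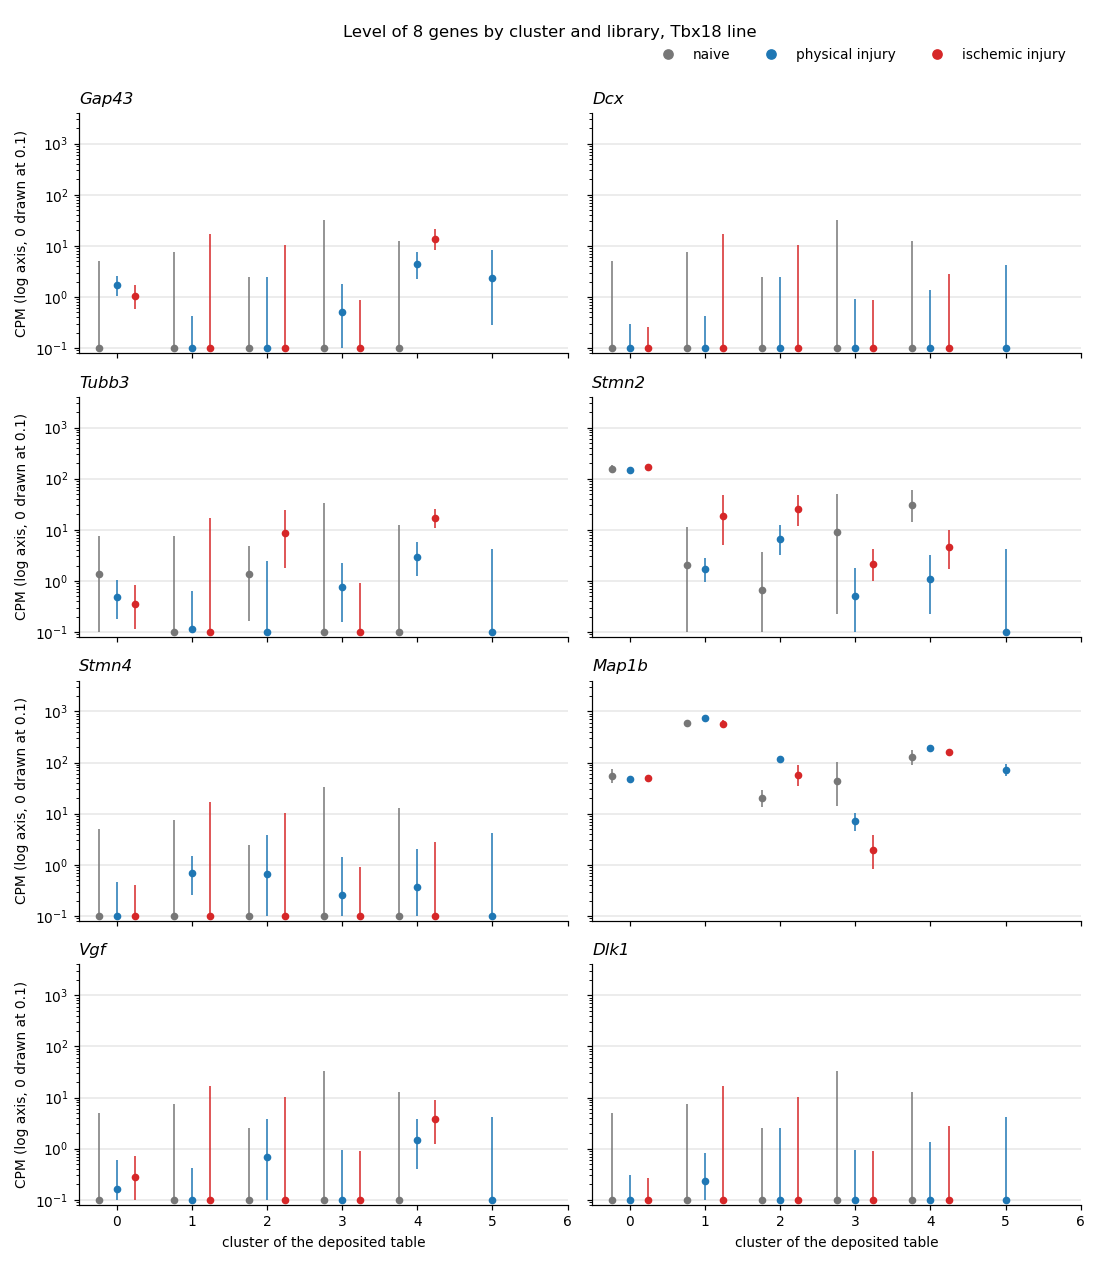
Level of each of the 8 genes in the clusters of the Tbx18 line, in CPM on a log axis with 0 drawn at 0.1, 1 point for each cluster and library of at least 20 cells with its exact Poisson interval. Cluster 6, with 14 physical and 8 ischemic injury cells, is not drawn. Stmn2 stands at 148 to 170 CPM in cluster 0 and Map1b at 563 to 728 CPM in cluster 1, while Dcx and Dlk1 have 1 and 2 counts in the line.

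Other genes of these pathways were compared between clusters 7 and 6 by lists, beside the same 26.0% and 25.5% of all genes. Of 18 microtubule and tubulin genes, 6 were higher and 2 lower in cluster 7 after physical injury, and 7 and 3 after ischemic injury, with median log2 ratios of 0.29 and -0.06. Stmn1, the widely used stathmin that dividing cells also carry, was at 884 CPM in cluster 7 and 103 CPM in cluster 6 after ischemic injury (log2 ratio 3.09), and Tubb6, a broadly used beta-tubulin, at 124 and 9.62 CPM (3.55). Mapt, the axonal protein tau, stood lower at 97.0 against 247 CPM (-1.34), and so did Tubb4a at 62.4 against 237 CPM (-1.91). All 4 went the same way after physical injury (4.22, 4.81, -1.38 and -1.89).

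Of 20 growth cone and neurite outgrowth genes, 2 were higher and 3 lower in cluster 7 among 19 counted after ischemic injury, and 2 and 2 among 18 after physical injury. Basp1, a growth cone protein related in function to Gap43, was at 1148 against 607 CPM after ischemic injury (log2 ratio 0.92), within 2-fold. The actin-binding gene Cotl1 was higher (2.09), and the adhesion gene Ncam1 lower, at 270 against 876 CPM (-1.69). Nrcam, another adhesion gene, was at -0.77.

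No gene of the neuroblast transcription factor and RNA-binding list was called higher in cluster 7 in either library. Of 7 counted after ischemic injury 3 were lower, and of 6 after physical injury 1 was lower. Sox11 and Sox4, factors of newborn neurons that OPCs also carry, had log2 ratios of 0.84 and 0.01, and the neuronal factor Myt1l and the RNA-binding Elavl3 were lower at -1.31 and -1.10. Dlx1, Dlx2, Dlx6, Sp9, Tbr1, Neurog2 and Insm1 had at most 9 counts in the 438 ischemic injury cells of cluster 7, and Eomes, Neurod1, Neurod2, Neurod6, Dlx5 and Sp8 had no entry in the table analysed here.

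Mature neuron genes were lower more often than higher, with 7 lower and 3 higher of 14 counted after ischemic injury and 6 and 2 of 12 after physical injury. Snap25, a synaptic vesicle fusion protein, was at 25.0 against 135 CPM in cluster 7 and 6 (log2 ratio -2.39), and Gad1, an enzyme of GABA synthesis, at 11.1 against 51.6 CPM (-2.12). Uchl1 (1.96) and the neurofilament gene Nefm (2.17) were higher in cluster 7. The nuclear marker Rbfox3 had 0 counts in both clusters after ischemic injury, and Slc17a7 had 1 in each.

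Of the genes of dense-core vesicles, in which Vgf is packed, 1 of 13 counted was higher and 5 lower after ischemic injury, and 0 of 12 and 5 after physical injury. Pcsk2, a convertase of propeptides, was at 17.8 against 168 CPM (log2 ratio -3.17) and Scg5 at 43.2 against 176 CPM (-2.00), while Pam and Pcsk1n stood at 0.07 and -0.48. Of the Notch genes none was called higher in either library and 4 were lower in each, of 14 counted after ischemic and 11 after physical injury. Notch1 and its target Hes5 stood at 0.46 and 0.24 after ischemic injury, and at -0.14 and -0.92 after physical injury.

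Across 31 groups of cluster and library in the NG2 line, the levels most like each gene's were found among 8848 genes by Pearson's r of log2(CPM + 1), as a description over groups that share libraries. For Dcx they were those of Cntnap5b (0.976), Neto1 (0.968) and Prkg2 (0.966), and for Gap43 those of Stk32a (0.9497), Syt6 (0.944) and Mt3 (0.938). Stmn2 was most like Icam2 (0.967), Ccm2l (0.964) and Sox17 (0.958), of which Icam2 and Sox17 are endothelial genes. Stmn4 was most like Fbxo2 (0.952), Crtac1 (0.951) and Rab33a (0.951), and Map1b like Enah (0.945), Cpe (0.862) and Lims2 (0.831). Vgf was most like Moxd1 (0.901), Pyy (0.900) and Aldh1a3 (0.898), Dlk1 like Pyy (0.803), Vgf (0.799) and 8030451A03Rik (0.793), and Tubb3 like Tnfaip6 (0.870), Ptprn (0.852) and Elovl6 (0.842).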

How the data were processed

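Cells sorted from cortices pooled over animals were sequenced as droplet 3′ libraries, 1 for each of the 6 groups. Per the labels the authors made the UMI counts with Cell Ranger 7.0.0 on mm10 (GRCm38). The study's methods name a range of Cell Ranger versions, removal of cells by gene number, depth and mitochondrial share, removal of Gm42418 and AY036118, and Seurat integration and clustering. The deposited UMI counts were unnormalized, and the deposited metadata gave the cluster, the library and the percent of mitochondrial counts of each cell, which stayed under 12 in every library. No further cell was removed. Doublets were left in: Scrublet (scanpy 1.11.5) called 67 of 17033 cells (0.393%) and so did not work as a caller here.

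Counts were summed per cluster and library and divided by all UMIs of those cells (CPM), for groups of at least 20 cells. Intervals were exact Poisson for levels, Clopper-Pearson for shares and conditional binomial for ratios, with a floor of 3 counts for a zero (scipy 1.17.1). They cover counting error only. A gene was counted in a comparison with at least 10 counts in both groups together and called past 2-fold with a pseudocount of 1 CPM. This procedure was tested on simulated counts of genes of at least 50 CPM, with 4-fold changes and counting error only. Lower levels, and counts held by a few cells, were not covered by that test. Shares of cells were taken after thinning each cell to a fixed number of UMIs. The genes and all lists were chosen with earlier results of these data known, and the comparisons within NG2 clusters 4 and 5 and Tbx18 cluster 0 and the endothelial lists after values of these genes had been seen. From each related list the text names the 2 highest and 2 lowest ratios after ischemic injury among genes of at least 50 CPM in either cluster, and for each member the 3 genes of highest r. Other genes named, such as Rbfox3 and Slc17a7, were chosen after their values were seen. Positions are those of GENCODE M21. Alternatives covered the pseudocount, the count minimum, TMM scaling (edgeR 4.0.16), the mean over cells, the cells with the most counts, cell filters and depth.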

Additional observations from a re-analysis of the deposited data

Results flagged for a closer look

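The ratio of Map1b between NG2 clusters 7 and 6 had opposite signs in the injured libraries, with a difference of 1.65 on the log2 scale between ischemic (0.64) and physical injury (-0.997). With 1 library each the difference was not tested. In cluster 7 Map1b was at 126 CPM after physical and 337 CPM after ischemic injury, against 252 and 215 CPM in cluster 6. After physical injury 4 of 301 cells of cluster 6 held 28.3% of its counts there, and 1 of 76 cells of cluster 7 held 15.6%. The ratio after physical injury was 0.15 on the log2 scale when the filters of the study's methods were applied again to the deposited cells.

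Stmn2 was lower after ischemic than after physical injury in endothelial-like cluster 5 of the NG2 line and higher in cluster 0 of the Tbx18 line, a difference of 0.78 on the log2 scale that was not tested. The level was 106 against 159 CPM in the former and 170 against 148 CPM in the latter. Cells with Stmn2 were 18.1% against 23.3% of NG2 cluster 5 and 28.3% against 21.8% of Tbx18 cluster 0.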

How the results depend on the processing

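Each ratio was recomputed under 8 alternatives, of which the thinning of cells of at least 5000 UMIs, and all alternatives for NG2 clusters 4 and 5 and Tbx18 cluster 0, were chosen after seeing the data. The higher levels of Gap43, Vgf and Dlk1 in cluster 7 over 6 stayed past 2-fold in 8 of 8 in both libraries, with log2 ratios from 2.61 to 3.23, 2.51 to 5.64 and 1.92 to 6.14 after physical injury and 1.19 to 1.60, 2.68 to 3.93 and 2.45 to 4.34 after ischemic injury. The lower level of Dcx stayed past 2-fold in 8 of 8 after ischemic and 7 of 8 after physical injury, and the higher level of Tubb3 after physical injury in 5 of 8. Over the ratios of the 8 genes, the alternatives chosen after seeing the data left 157 values unmoved, moved 22 and reversed 1, and the others left 260 unmoved, moved 47 and reversed 1. Reversed here means that a ratio past 2-fold changed its sign. Those reversed were Stmn2 in cluster 6, ischemic over physical injury, at -0.34 without the cells of highest doublet score (its counts came from 1 cell), and Dlk1 in cluster 7 at -0.0905 in thinned cells. For these the log2 ratios had been 1.58 and 1.07. Ratios within 2-fold also changed sign, among them, for cluster 7 over 6, Map1b after physical injury (-0.997 to 0.15) and Stmn2 after ischemic injury (0.25 to -1.15) under the methods' filters, and Stmn4 after physical injury (0.02, same sign in 3 of 8). Between injuries, Tubb3 in cluster 7 (-0.11) kept its sign in 5 of 8. Vgf in cluster 7, ischemic over physical injury, ranged from 0.81 to 2.69, Map1b from 0.83 to 1.88 and Dcx from -1.90 to -0.35. No paired analysis was possible because each group was 1 pooled library.

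A pseudocount of 10 CPM lowered the number of genes past 2-fold from 3490 to 1571 for cluster 7 against 6 after physical and from 4047 to 1849 after ischemic injury (30 to 19 over the related lists after physical injury). It lowered those of ischemic against physical injury from 1840 to 251 in cluster 7, 883 to 123 in cluster 6, 645 to 104 in cluster 4, 554 to 45 in cluster 5 and 176 to 20 in Tbx18 cluster 0, and those against naïve cells from 1577 to 231 and 2102 to 446. The mean over cells gave 6185, 3385 and 2370 genes for cluster 7 against 6 after physical injury, between injuries in cluster 7, and physical injury against naïve. A minimum of 1 count gave 3228 and 3842 genes against naïve, and the methods' filters 2682 and 3693, and 1005 in cluster 4. Leaving out the top 1% of cells gave 265 in Tbx18 cluster 0. The cause of these shifts was not tested.

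Shares grew with depth, by construction. Gap43 reached 60.0% at 2000 UMIs and 91.1% unthinned in cluster 7 after ischemic injury, 55.3% unthinned after physical injury, and 23.7% and 50.7% in cluster 6 after ischemic injury. Dcx in cluster 6 reached 11.96% and 40.9% after physical and 9.63% and 37.1% after ischemic injury, and 17.1% unthinned in cluster 7. At 2000 UMIs at least 2 genes were found in 11.96% and 18.9% of cluster 6 and 42.6% and 48.0% of cluster 7 cells after physical and ischemic injury. Naïve smooth-muscle-like cells had Map1b at 712 and 663 CPM in cluster 4 of the naïve table and at 650 and 584 CPM in the lines' own tables.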
